A study of Homo sapiens with 6 samples.

Results

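The monocarboxylate transporters are the SLC16 family of membrane carriers. The best known of them move lactate, pyruvate and ketone bodies across the plasma membrane together with a proton, while other members carry aromatic amino acids, creatine or carnitine. Several of them need a partner glycoprotein to reach the cell surface, and basigin (BSG) is the partner of SLC16A1 and SLC16A3. In liver these carriers serve the uptake of lactate for glucose synthesis and the release of ketone bodies, and in tumour cells the export of lactate from glycolysis.

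The 10 genes described here are 9 SLC16 carriers and BSG, matched by exact symbol among the 43424 symbols counted in each library; all 10 were found. The set was chosen by the counts of these same libraries: SLC16A6 was selected on its large fold change between treated and control cells, and the rest as the relatives with which to compare it. The difference of each member is therefore given as a description, without a p-value. Further carrier genes of the family in the files, SLC16A8, SLC16A11, SLC16A12 and SLC16A14 among them, are not among the 10, and these 4 were close to or at 0 counts.

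The cells were HepG2, a human liver cancer line, wild-type only in the sense of not engineered, in which many hepatocyte genes remain switched on. Of 6 libraries, 3 came from control cells, whose labels give no treatment, and 3 from cells given 10 µM tamarixetin for 24 h. Tamarixetin is an O-methylated form of the plant flavonol quercetin. Per the labels' protocols, cells grew in RPMI1640 with 10% serum and 1% sodium pyruvate, a substrate of these carriers, and tamarixetin was given with 1% serum and the same pyruvate. Neither the serum of the control cultures in those hours nor a vehicle is stated, so a serum or vehicle difference cannot be told apart from tamarixetin in any value below. The samples of a group are called biological replicates, and both groups are the same line.

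Libraries held 11980585 to 16168855 counts. Made with a 3′ kit, they count about 1 fragment per transcript next to the poly(A) tail, so levels of different genes can be set side by side without division by length. Levels are given as CPM, the counts per 1000000 counts of the scaled library. The hepatocyte markers ALB, AFP, APOA1, APOB, TTR, SERPINA1, TF and HNF4A were all present, and their summed level ranged from 15690 to 16290 CPM in control and from 9092 to 9343 CPM in tamarixetin libraries. The leukocyte marker PTPRC was near 0 (0.114 and 0.0977 CPM), as was the endothelial marker CDH5 (0.0696 and 0.0938 CPM). Of the 9 markers of other cells LYZ (936 and 781 CPM), COL1A1 (25.4 and 21.0 CPM) and CD68 (12.6 and 14.4 CPM) had the highest levels.

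Kinship within the family shows in a short signature near the start of the first membrane-spanning segment. Its 6 codons allow aspartate or glutamate, glycine, glycine or serine, tryptophan or phenylalanine, glycine or alanine, and tryptophan. The signature is printed because it ties SLC16A6 to carriers of very different level and response. Each stretch below is 48 bases of coding sequence on the coding strand, from GENCODE v29 on GRCh38, with the 18 bases of the signature in capitals.
SLC16A6 (chr17:68278231-68278278, minus strand): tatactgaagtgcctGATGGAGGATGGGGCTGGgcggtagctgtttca
SLC16A1 (chr1:112929234-112929281, minus strand): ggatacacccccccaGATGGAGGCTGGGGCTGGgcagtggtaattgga
SLC16A3 (chr17:82236042-82236089, plus strand): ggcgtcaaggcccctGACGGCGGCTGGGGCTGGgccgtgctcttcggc
SLC16A7 (chr12:59704829-59704876, plus strand): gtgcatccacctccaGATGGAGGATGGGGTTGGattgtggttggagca
SLC16A4 (chr1:110389246-110389293, minus strand): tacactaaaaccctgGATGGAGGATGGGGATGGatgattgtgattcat
SLC16A5 (chr17:75093646-75093693, plus strand): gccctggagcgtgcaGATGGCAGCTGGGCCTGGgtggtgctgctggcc
SLC16A9 (chr10:59684238-59684285, minus strand): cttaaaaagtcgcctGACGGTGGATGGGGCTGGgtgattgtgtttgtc
SLC16A13 (chr17:7036392-7036439, plus strand): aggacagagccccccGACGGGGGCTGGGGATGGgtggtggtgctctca
SLC16A10 (chr6:111087933-111087980, plus strand): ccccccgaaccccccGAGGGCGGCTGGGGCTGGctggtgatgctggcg

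The signature begins at codon 20 of SLC16A6, and at codons 8 to 17 in the other carriers shown except SLC16A10, a longer chain at its start, where it begins at codon 66. Of its 18 bases SLC16A1, SLC16A7 and SLC16A4 share 17 with SLC16A6, SLC16A9 16, SLC16A3 and SLC16A10 15, and SLC16A5 and SLC16A13 14. It was found in 14 of 14 SLC16 genes and in 1 other gene among 19651 coding genes searched (0.0763%), and BSG, an immunoglobulin-like protein and no carrier, lacks it. Over the whole coding sequence the carriers were less alike. The alignments put no penalty on gaps at the ends. In them SLC16A6 and another carrier were identical at 50.6% to 56.5% of the bases of the shorter one (8 pairs). Carriers paired with BSG, which is unrelated, were identical at 51.6% to 58.1% (9 pairs). These ranges overlap, so the alignments do not set the relatives of SLC16A6 apart from an unrelated gene. The closest pair was SLC16A1 with SLC16A7, at 65.2%.

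SLC16A6 encodes MCT7, a member linked to ketone body export in the liver of fish and to taurine transport. It was the member with by far the largest difference. Its counts were 50, 58 and 33 in the control libraries and 1291, 1260 and 1213 in the tamarixetin libraries, which is 3.46, 4.83 and 2.07 CPM against 82.8, 91.2 and 100.04 CPM. All 3 treated libraries lie far above all 3 controls, and the control level rests on few counts. The mean rose from 3.45 ± 1.38 to 91.3 ± 8.62 CPM (SD, n = 3 per group), a fitted log2 fold change of 4.77 (SE 0.112), or 27.3-fold. With each library left out in turn the log2 value ran from 4.47 to 5.05. That spread is wider than the SE of 0.112, which is the SE of the edgeR fit only. DESeq2 and limma-voom gave clearly larger SEs for nearly the same value. The SE of 0.112 may therefore understate the uncertainty, as the control level rests on few counts that differed between libraries. By log2 fold change, the value it was selected on, SLC16A6 stood 8th of 13198 genes tested. It stood 2nd of the 8646 whose mean level over all 6 libraries reached 10 CPM, a level it had in the tamarixetin libraries only.

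**Figure D1:**
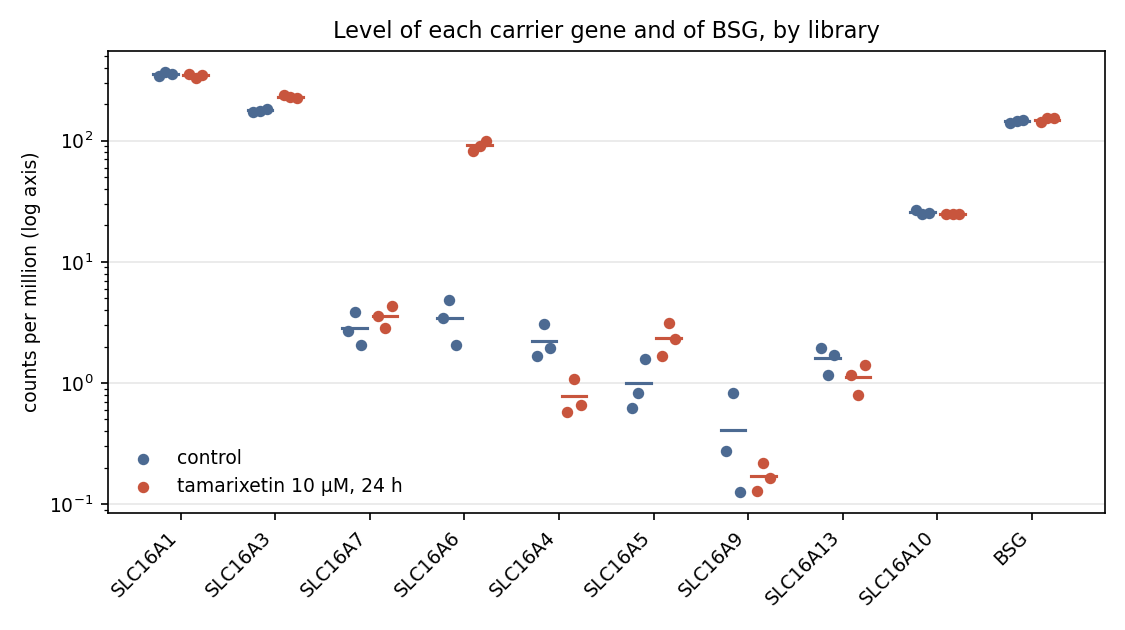
Level of each carrier gene and of BSG in each of 6 libraries, in CPM on a log axis; points are libraries, short lines are group means of 3. SLC16A6 moves from the band of the scarce carriers, at 2.07 to 4.83 CPM, to 82.8 to 100.04 CPM, next to the abundant ones, while SLC16A1, SLC16A10 and BSG stay in overlapping ranges.

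Among the carriers of lactate and pyruvate SLC16A1 and SLC16A3 were abundant. SLC16A1 (MCT1), the widespread carrier that works in both directions, was at 343, 371 and 354 CPM in control and 357, 330 and 350 CPM in tamarixetin libraries. The ranges overlap, and the log2 fold change was -0.041 (SE 0.038). SLC16A3 (MCT4), the carrier typical of glycolytic cells that export lactate, was at 174, 176 and 184 CPM against 239, 228 and 223 CPM. Each treated library lies above each control, with a log2 fold change of 0.37 (SE 0.042). The count of SLC16A1 was 2.00 ± 0.0918 times that of SLC16A3 in control and 1.501 ± 0.0595 times in tamarixetin libraries (SD, n = 3 each). SLC16A7 (MCT2), a carrier of high affinity for pyruvate, was scarce, at 39, 46 and 33 counts against 56, 39 and 52. Its groups overlap (log2 fold change 0.33, SE 0.264).

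BSG, the chaperone of SLC16A1 and SLC16A3, was at 139, 145 and 149 CPM in control and 141, 153 and 154 CPM in tamarixetin libraries. The groups overlap, with a log2 fold change of 0.047 (SE 0.047). The summed counts of SLC16A1 and SLC16A3 were 3.69 ± 0.0865 times those of BSG in control and 3.86 ± 0.311 times with tamarixetin (SD, n = 3 each), a difference smaller than the spread of the treated libraries. A transcript read on the other strand at the start of the gene, BSG-AS1, is no member and fell from 4.32 ± 0.999 to 2.29 ± 0.611 CPM (log2 fold change -0.92, SE 0.260; edgeR adjusted p = 0.00222). Without a stated strand setting its reads cannot be told apart from those of BSG where both overlap.

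The aromatic amino acid carrier of the family, SLC16A10 (TAT1), was at 26.8, 24.9 and 25.5 CPM in control and 24.95, 24.9 and 24.7 CPM in treated libraries, with a log2 fold change of -0.053 (SE 0.093). The groups overlap, and the 3 treated libraries lie close together at the level of the lowest controls.

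The remaining members were at a few CPM or less. SLC16A5 (MCT6), which carries drugs such as bumetanide, had 9, 10 and 25 counts in control and 26, 43 and 28 in tamarixetin libraries. In CPM the highest control (1.57) lies just under the lowest treated library (1.67), and the log2 fold change was 1.19 (SE 0.382). Its call was lost without control replicate 1 (0.92) or without tamarixetin replicate 2 (0.94). SLC16A4 (MCT5) moved the other way, from 24, 37 and 31 counts to 9, 15 and 8. Every treated library was below every control (log2 fold change -1.50, SE 0.408). SLC16A13 (MCT13), a lactate carrier expressed in liver, had 28, 14 and 27 counts against 18, 11 and 17, with overlapping groups (log2 fold change -0.54, SE 0.399). SLC16A9 (MCT9), a carnitine carrier, had 4, 10 and 2 counts against 2, 3 and 2 and was removed by the filter on low counts.

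**Figure D2:**
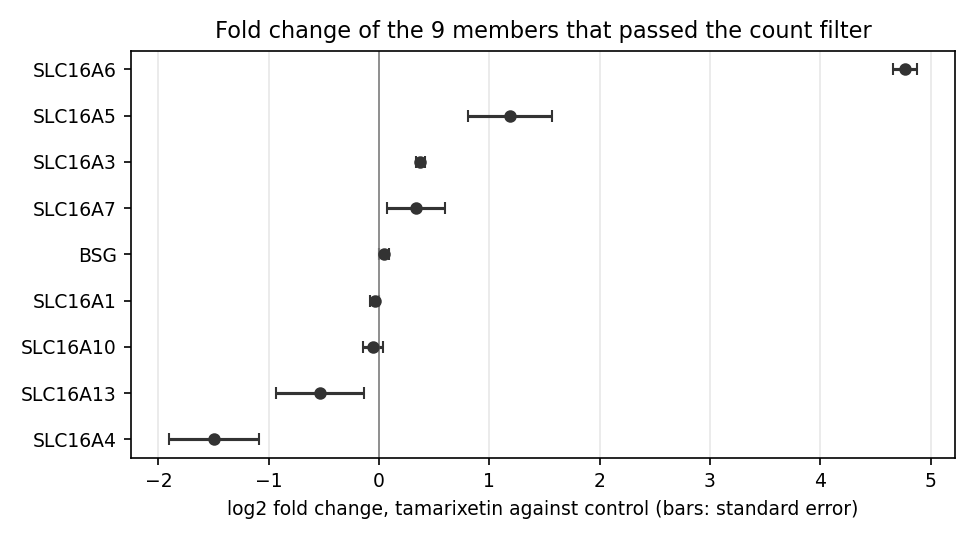
Log2 fold change of tamarixetin against control for the 9 members that passed the filter on low counts, with bars of 1 standard error from the edgeR fit. SLC16A6 lies at 4.77, the other 8 between -1.50 and 1.19, and the wide bars belong to the members with few counts.

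Of the 10 members, 9 passed the filter and 1 (SLC16A9) did not. SLC16A6, SLC16A3 and SLC16A5 were called higher and SLC16A4 lower at an adjusted p under 0.05 in edgeR's quasi-likelihood test, while SLC16A1, SLC16A7, SLC16A10, SLC16A13 and BSG were not called. Over all 13198 genes tested 43.7% were called, 22.4% higher and 21.3% lower. Since the members were gathered on this contrast, their calls are a description and no test of them, and nothing is read from their count. The groups did not overlap in the same 4 members, against 50.5% of all genes tested. The median log2 fold change of the 9 was 0.047, that of BSG, beside 3.76e-04 over all genes tested.

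The order of the family changed with SLC16A6. In control cells the levels ran SLC16A1, SLC16A3, BSG and SLC16A10, each clear of the next, and then SLC16A6, SLC16A7, SLC16A4, SLC16A13, SLC16A5 and SLC16A9, in which each neighbour overlaps the next over the 3 libraries. In tamarixetin cells SLC16A6 stood after BSG and above SLC16A10, with no overlap on either side. Below them came SLC16A7 and SLC16A5, which overlap, then SLC16A13 and SLC16A4, which overlap, and last SLC16A9.

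Summed over the 14 carrier genes of the family, the level was 571 ± 16.2 CPM in control and 700 ± 15.4 CPM in tamarixetin libraries, and without SLC16A6 568 ± 15.7 against 609 ± 18.6 CPM (SD, n = 3 each). SLC16A6 made up 0.623%, 0.824% and 0.361% of the family's counts in the control libraries. Its share was 11.6%, 13.4% and 14.1% in the tamarixetin libraries, where exact binomial 95% intervals run from 11.1% to 12.2%, 12.7% to 14.1% and 13.4% to 14.9% and cover counting error only. The mean share went from 0.603% ± 0.232 to 13.1% ± 1.28 (SD, n = 3 each). The share of SLC16A1 went from 62.2% ± 0.813 to 49.3% ± 0.936 while the ranges of its own level overlapped, and SLC16A3 had 31.2% ± 1.02 and 32.9% ± 1.12. There were 99.1, 76.7 and 171 counts of SLC16A1 for each count of SLC16A6 in control libraries, and 4.31, 3.62 and 3.49 in tamarixetin libraries.

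**Figure D3:**
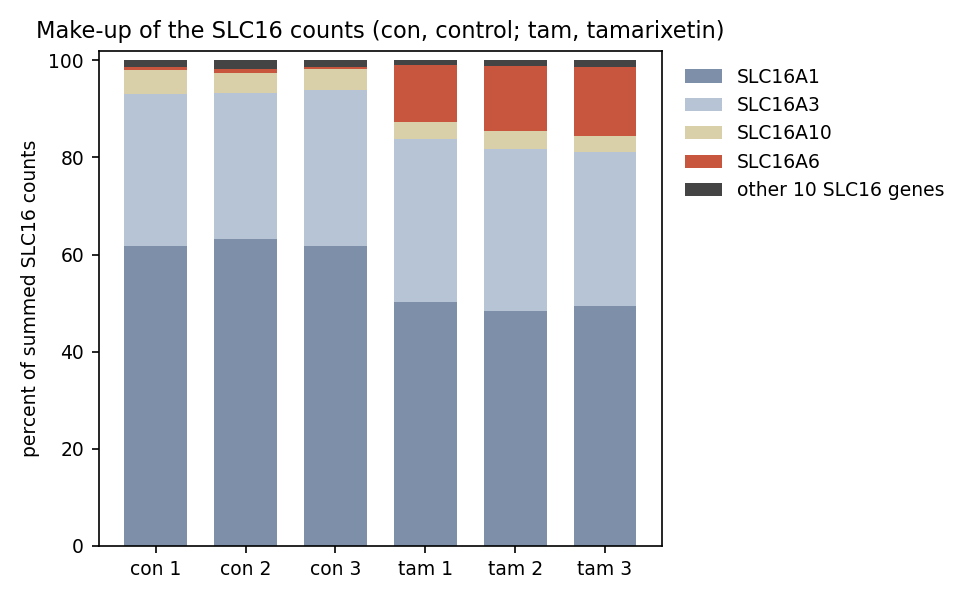
Share of each carrier gene in the summed SLC16 counts of each library, in percent; the 10 scarce or undetected carriers are pooled in the top band. SLC16A6 widens from under 1% in the 3 control bars to 11.6% to 14.1% in the 3 tamarixetin bars, and SLC16A1 narrows from about 62.2% to 49.3%.

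Other SLC16 symbols add little. SLC16A12, a creatine carrier, had 1 count in control and 3 in treated libraries, and SLC16A14 had 0 and 5. SLC16A8 (MCT3), a lactate carrier of the retinal pigment epithelium, and SLC16A11 had 0 counts, as did SLC16A12-AS1, in all 6 libraries, which allows up to 0.0357 CPM over the libraries together (3 counts). SLC16A1-AS1, read on the other strand at the start of SLC16A1, was the single one of these tested and was not called, at 0.827 ± 0.572 and 1.15 ± 0.759 CPM (log2 fold change 0.47, 95% interval -0.51 to 1.46; edgeR adjusted p = 0.470).

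Since counts are taken at the 3′ end, the place of that end decides what a value stands for. SLC16A6 (gene 9120, chr17:68267026-68291479 on GRCh38.p14, minus strand) lies inside ARSG, a lysosomal sulfatase gene that runs the other way (chr17:68259170-68452019, plus strand). The 24 bases around its poly(A) signal are shown because the counted fragments lie near it; capitals mark the signal AATAAA, which stops 25 bases before the annotated end.
SLC16A6 (chr17:68267042-68267065, minus strand): tagatttgcAATAAAtttatggat

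The nearest ARSG exon in GENCODE v29 is 6864 bases from that end, the exons of both genes share 144 bases further inside, and the farthest end of a coding ARSG transcript is 155705 bases away. At the other end of SLC16A6, ARSG exons begin 0.224, 0.228 and 0.251 kb upstream of its start and point away from it. Whether ARSG transcripts start there in these cells was not tested. Of the 251 stretches of 50 bases in the last 300 bases of SLC16A6, 0 occur in the transcripts of another gene on either strand. ARSG also rose, from 6.08, 4.08 and 6.39 CPM to 16.7, 19.6 and 16.2 CPM. Its groups do not overlap (log2 fold change 1.64, SE 0.146; edgeR adjusted p = 8.93e-18). For each ARSG count there were 0.568, 1.18 and 0.324 counts of SLC16A6 in control libraries and 4.97, 4.65 and 6.19 in tamarixetin libraries. The part of shared or antisense reads in the ARSG value was not tested.

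**Figure D4:**
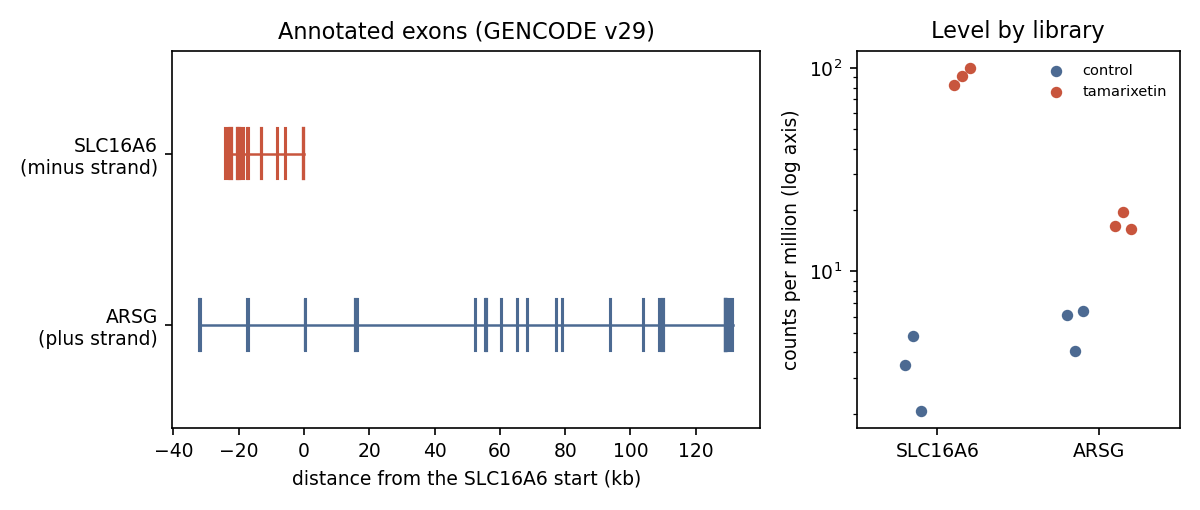
Left, annotated exons of SLC16A6 and of ARSG, which runs across it on the other strand, by distance from the SLC16A6 start in kb; right, the level of both genes in each library, in CPM on a log axis. Both genes are higher in the 3 tamarixetin libraries, SLC16A6 at 82.8 to 100.04 CPM and ARSG at 16.2 to 19.6 CPM.

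SLC16A3 (chr17:82217934-82240086) overlaps the kinase gene CSNK1D on the other strand at its 3′ end. There 91.6% of the 50-base stretches in the last 300 bases of its longest principal transcript also occur, on the other strand, in CSNK1D transcripts, so its value is uncertain if strand was not used in counting. CSNK1D itself was at 114 ± 5.04 and 117 ± 4.98 CPM and was not called (log2 fold change 0.041, 95% interval -0.058 to 0.14; edgeR adjusted p = 0.539). For SLC16A1, SLC16A4, SLC16A5, SLC16A7, SLC16A9, SLC16A10, SLC16A13 and BSG no such stretch occurred in another gene of GENCODE v29. The search covered the last 300 bases of a single transcript of each gene, and other ends were not searched. SLC16A5 runs in RefSeq to position 75110149, past the searched end at 75106151 and into ARMC7 on the same strand. LOC124904342, which overlaps the 3′ end of SLC16A1 in RefSeq, had 0 counts in all libraries. Since the counting settings are not stated, that value does not show how reads in the overlap were counted. Near SLC16A3, CCDC57 fell from 30.0 ± 0.599 to 23.3 ± 1.73 CPM (log2 fold change -0.36; edgeR adjusted p = 5.58e-04). Near SLC16A4, LAMTOR5, a subunit of the complex that places mTORC1 on lysosomes, rose from 91.2 ± 2.63 to 105 ± 1.59 CPM (0.21; edgeR adjusted p = 6.17e-04). ARMC7, which overlaps SLC16A5, was not called (0.30, 95% interval -0.022 to 0.61; edgeR adjusted p = 0.129).

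Promoter windows of 300 bases were given in the RefSeq table (GRCh38.p14) for 6 of the 10 members, 13 windows in all, and not for SLC16A1, SLC16A5, SLC16A6 or SLC16A13. Motifs were searched on both strands. The aryl hydrocarbon receptor motif TNGCGTG was found in 1 of the 13 windows, for BSG, and in 5.51% of the 35116 promoters of the table. The antioxidant response core TGACNNNGC was found in 2 of the 13 windows, for BSG and SLC16A9 (13.3% of all promoters). The E-box CACGTG was also found in 2 of the 13, for the same genes (7.26% of all). The cAMP response element TGACGTCA and the ATF motif TGATGNAAN were found for none of the 6 members (1.85% and 3.61% of all).

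The wider handling of lactate, pyruvate and ketone bodies was followed in a list of 55 genes with no member of the family. Of these 43 were tested, 15 rose (34.9%) and 15 fell (34.9%), beside 22.4% higher and 21.3% lower of all genes tested. The median log2 fold change was -0.072 beside 3.76e-04 over all genes tested. Changes went in both directions.

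The other accessory chains were unequal in level. NPTN (neuroplastin), a relative of BSG that can also accompany these carriers, rose from 86.4 ± 6.38 to 103 ± 4.96 CPM (log2 fold change 0.25, SE 0.055; edgeR adjusted p = 5.59e-05). EMB (embigin), the partner of SLC16A7, was near 0 with 0.0278 and 0 CPM, and the sodium-coupled carriers SLC5A8 and SLC5A12 were too low to be tested.

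Of 8 tested enzymes that make or use lactate and pyruvate 2 rose and 5 fell. LDHA, the lactate dehydrogenase chain typical of lactate production, went from 685 ± 31.7 to 598 ± 28.0 CPM, and the pyruvate kinases PKM from 621 ± 23.1 to 533 ± 9.25 CPM and PKLR from 13.8 ± 1.14 to 6.48 ± 0.234 CPM. Their log2 fold changes were -0.20, -0.22 and -1.08 (edgeR adjusted p = 1.29e-06, 4.13e-08 and 4.76e-10). LDHB, the chain of lactate-consuming tissues, was scarce, at 0.898 ± 0.231 and 0.866 ± 0.191 CPM, and its interval is wide (log2 fold change -0.072, 95% interval -1.01 to 0.87). Of the enzymes that turn pyruvate and oxaloacetate toward glucose, PC (pyruvate carboxylase) rose from 13.5 ± 1.35 to 27.0 ± 1.11 CPM and the mitochondrial PCK2 from 184 ± 7.96 to 231 ± 3.18 CPM (log2 fold changes 0.996 and 0.32; edgeR adjusted p = 5.14e-14 and 1.28e-10). The cytosolic PCK1 and the D-lactate dehydrogenase LDHD, named after their values were seen, fell from 5.72 to 4.08 CPM and from 6.22 to 2.78 CPM (-0.49 and -1.13; edgeR adjusted p = 0.0455 and 1.56e-05). The call of PCK1 was lost in 9 of the other settings, among them DESeq2 (adjusted p = 0.0876) and limma-voom (adjusted p = 0.054).

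Both subunits of the mitochondrial pyruvate carrier fell. MPC2 was at 71.9, 69.3 and 78.1 CPM in control and 38.2, 42.8 and 44.0 CPM in tamarixetin libraries, and MPC1 at 65.7, 72.6 and 71.2 CPM against 56.5, 56.6 and 56.2 CPM. Every treated library lay below every control for both genes. The log2 fold change of MPC2 was -0.82 (SE 0.067, edgeR adjusted p = 1.27e-19) and that of MPC1 -0.31 (SE 0.063, edgeR adjusted p = 2.37e-05). Around pyruvate dehydrogenase, 3 of 11 tested genes rose, 4 fell and 4 were not called; DLAT, 1 of the 3, lost its call without control replicate 3 or tamarixetin replicate 2 or 3 (0.17 to 0.20). PDK2, a kinase that switches the enzyme off, fell from 23.4 ± 2.21 to 14.9 ± 1.11 CPM (log2 fold change -0.65; edgeR adjusted p = 2.57e-07). PDK1 and PDK3, named after their values were seen, fell too (-0.34 and -0.50; edgeR adjusted p = 0.00172 and 3.05e-04). The groups of PDK1 overlap, at 33.2, 34.8 and 31.7 CPM against 20.8, 26.1 and 32.4 CPM, and its call was lost without tamarixetin replicate 1 (-0.19, edgeR adjusted p = 0.125).

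Among ketone body genes 2 of 6 tested fell and the other 4 were not called; the call of BDH2, 1 of the 2, was lost without control replicate 3 or tamarixetin replicate 1 (-0.36 and -0.37). BDH1, which interconverts acetoacetate and 3-hydroxybutyrate, fell from 30.6 ± 1.08 to 15.2 ± 2.93 CPM (log2 fold change -1.02, SE 0.104; edgeR adjusted p = 7.88e-15).

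**Figure D5:**
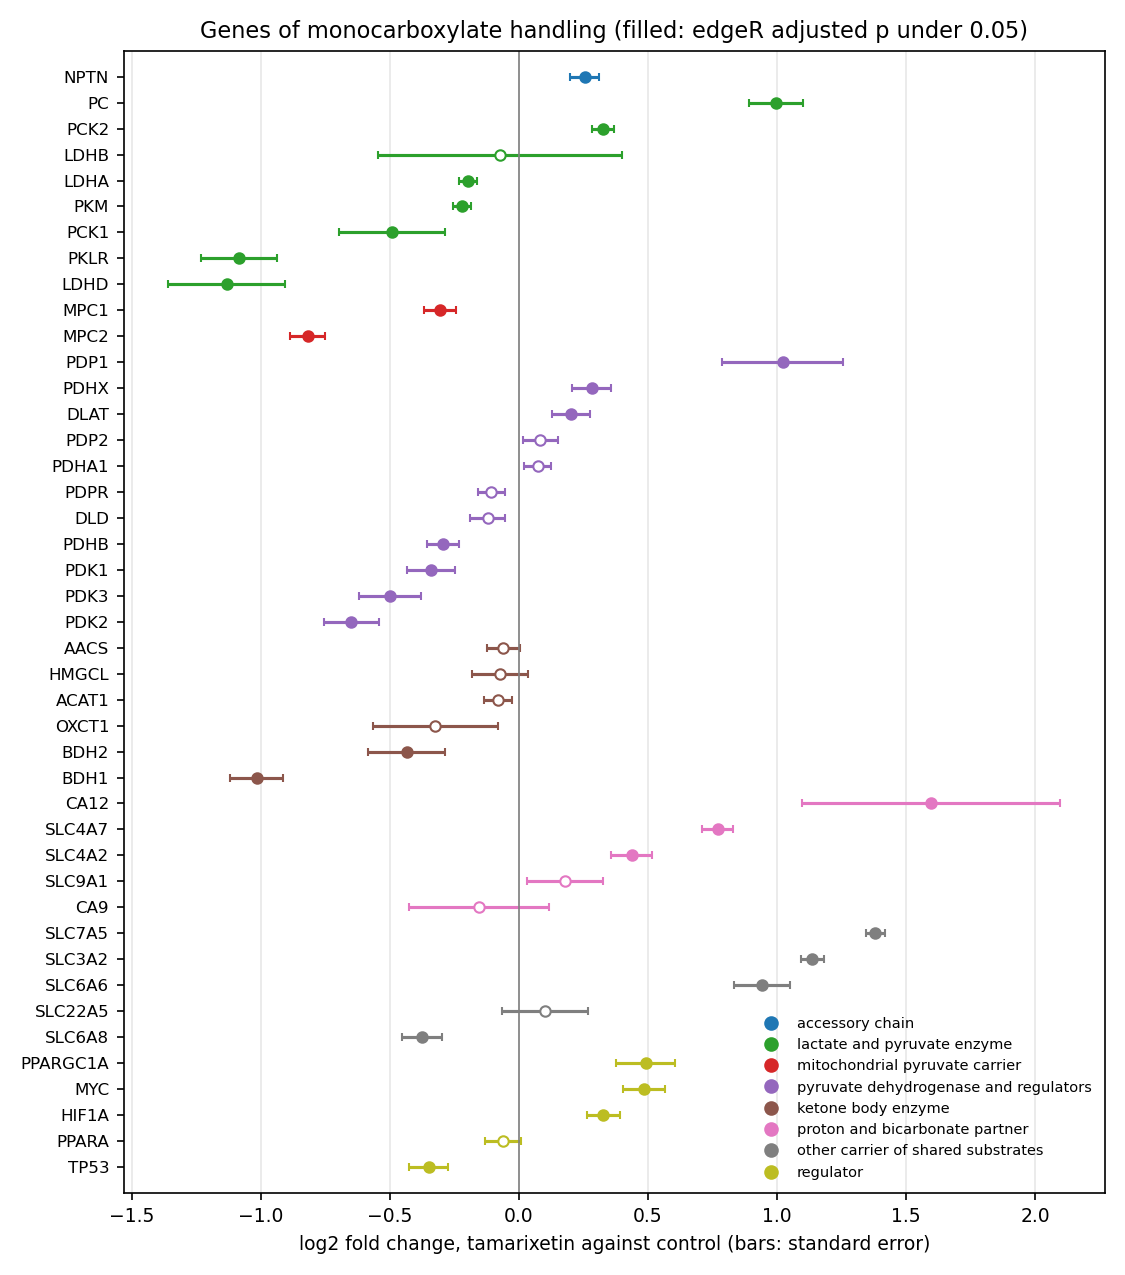
Log2 fold change of tamarixetin against control for the 43 tested genes of monocarboxylate handling, coloured by role, with bars of 1 standard error; filled points passed edgeR's adjusted p of 0.05. Both mitochondrial pyruvate carrier genes lie left of 0, at -0.82 and -0.31, and SLC7A5 and SLC3A2 lie right of it, at 1.38 and 1.14.

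Carriers that share substrates with SLC16 members rose in 3 of 5 tested and fell in 1. SLC7A5 and SLC3A2, the chains of the exchanger LAT1, which like SLC16A10 carries aromatic amino acids, rose from 234 ± 10.5 to 609 ± 12.4 CPM and from 136 ± 9.34 to 298 ± 7.47 CPM (log2 fold changes 1.38 and 1.14; edgeR adjusted p = 1.12e-55 and 3.51e-43). SLC6A6, the taurine transporter, rose from 12.9 ± 0.705 to 24.9 ± 0.771 CPM (0.94; edgeR adjusted p = 1.35e-12). Of 5 tested partners in proton and bicarbonate movement 3 rose and 2 were not called; 1 of the 3, CA12, lost its call without tamarixetin replicate 2 (1.31). SLC4A7, a sodium bicarbonate carrier, went from 54.8 ± 4.14 to 93.5 ± 1.51 CPM (0.77; edgeR adjusted p = 5.30e-21). Of 5 regulators 3 rose and 1 fell, and MYC, which drives SLC16A1 in other cells, rose from 31.7 ± 4.12 to 44.2 ± 2.95 CPM (0.48; edgeR adjusted p = 3.28e-07).

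The genes whose pattern over the 6 libraries was most like that of SLC16A6 were found by the root mean square difference of centred log2 CPM (prior count 2), which shrinks differences of scarce genes. They were LRRC25 (0.195), the complement receptor C5AR2 (0.417), the water and glycerol channel AQP3 (0.438), the water channel AQP8 (0.445) and the lens membrane protein LIM2 (0.569). LRRC25 had 9, 7 and 5 counts in control and 204, 242 and 223 in tamarixetin libraries. C5AR2 had 0 counts in each control library and 64, 75 and 72 in treated ones, and LIM2 had 5, 2 and 1 against 213, 217 and 226. The fitted log2 fold changes of C5AR2 (9.17, SE 0.716) and LIM2 (6.33, SE 0.290) were well above the 4.77 of SLC16A6. Those of LRRC25 and AQP8 were 5.01 and 4.44. AQP3 was the nearest in level, at 2.75 ± 0.261 and 58.7 ± 4.53 CPM (log2 fold change 4.41, SE 0.119), and AQP8 went from 0.428 ± 0.120 to 9.45 ± 1.90 CPM. They were chosen for their likeness, so no test is given.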

How the data were processed

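RNA was counted in 3 control and 3 tamarixetin libraries of HepG2 (QuantSeq 3′ forward kit, per the labels' protocols). The submitters' processing notes name the GRCh38 build, featureCounts 2.0.6, STAR 2.7.10b and fastp 0.23.1. Whether counting used strand or molecular identifiers, and with which annotation, is not given in the sources used here. Raw counts per gene symbol, without normalization, are what the authors deposited. Of 43424 symbols 42739 were in the RefSeq gene table, which gave gene coordinates; strands, exons and coding and 3′ sequences came from GENCODE v29.

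Genes were filtered with filterByExpr, scaled by TMM and compared in edgeR 4.0.16 (R 4.3.3) with the quasi-likelihood test and no covariate. Benjamini-Hochberg adjustment covered all 13198 tested genes, and 0.05 was the threshold. SE is the log2 fold change divided by the root of F. The script was tested on simulated counts. Totals of 11980585 to 16168855 make 1 count worth 0.0627 to 0.0833 CPM, which limits the scarce carriers. Chi-square per gene was 2.33 to 3.41 between libraries of one group, above sampling noise, and none was treated as a copy.

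The named genes are SLC16 symbols and BSG, the 12 pathway genes of smallest p plus 7 fixed ones, genes overlapping a member or starting within 20000 bases of it, and the 5 genes most like SLC16A6. Neighbours with too few counts to be tested are left out, except LOC124904342 and SLC16A11, and some genes under this rule are not reported here. The members and lists were chosen with earlier results of these data known. Alternatives were DESeq2 size factors, library size alone, no filter, at least 5 CPM in 3 libraries, DESeq2 1.42.0, limma-voom (limma 3.58.1), a replicate block, a threshold of 0.01 and leaving out each library.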

Additional observations from a re-analysis of the deposited data

How the results depend on the processing

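Over all genes 2954 were called higher and 2817 lower. The counts ran from 2336 to 3383 and from 2224 to 2838 over the other settings, and from 2643 to 2733 and from 2512 to 2645 with each library left out. In the pathway list 15 rose and 15 fell, with 13 to 15 and 13 to 15 over the other settings and 13 to 15 and 12 to 16 with each library left out. SLC16A6 ran from 4.74 to 4.84 over the other settings on the log2 scale, but its SE was clearly larger in DESeq2 and limma-voom than in the main fit. The call of SLC16A5 was lost with 1 library left out in 2 of 6 cases, with values of 0.92 to 1.69 over the 6. The share of SLC16A6 in the family's counts was 0.492% to 0.724% in control and 12.5% to 13.8% in tamarixetin libraries with each library left out, and 1.61% and 25.7% when SLC16A1 was left out of the sum. Same-numbered libraries of the groups did not deviate together (correlations of 0.0102, -0.0171 and -0.00785 over 8646 genes). This cannot show whether the cultures were handled in pairs. With the replicate block 5735 genes were called in place of 5771. The calls of 74 genes were followed, except under the threshold of 0.01 and, for those that failed it, the filter of at least 5 CPM in 3 libraries, which 58 of them passed (SLC16A4, SLC16A5, SLC16A7, SLC16A13, PCK1 and CA12 were among those that did not). In the settings that gave a value, SLC16A5, PCK1, PDK1, DLAT, BDH2 and CA12 lost their call in at least 1, DLD and PDPR gained one, and no gene that was called turned its sign. PCK1 lost it in 9 settings, DESeq2 (adjusted p = 0.0876), limma-voom (0.054) and the replicate block (0.0585) among them. The others changed call with a library left out, and in no other setting that gave them a value: SLC16A5 as above, PDK1 without tamarixetin replicate 1 (-0.19), DLAT without control replicate 3 or tamarixetin replicate 2 or 3 (0.17 to 0.20), BDH2 without control replicate 3 or tamarixetin replicate 1 (-0.36 and -0.37), CA12 without tamarixetin replicate 2 (1.31), DLD without control replicate 1 (-0.18) and PDPR without control replicate 2 (-0.16). The replicate block changed no other call among the 74. Scarce carriers are limited by depth: SLC16A9 was at 2 to 10 counts a library.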

Other observations

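Carriers of all solute carrier families were looked at after the values of SLC16A6 were known. Of 198 tested genes with an SLC symbol, 68 were called higher (34.3%) and 62 lower (31.3%), beside 22.4% and 21.3% of all genes tested (edgeR adjusted p under 0.05), and their median log2 fold change was 0.048. SLC16A6, which was selected on this value, had the highest log2 fold change of the 198. Behind it came SLC37A2, a sugar phosphate exchanger, which rose from 4.60 ± 0.256 to 18.6 ± 0.957 CPM (SD, n = 3 per group; log2 fold change 2.02, SE 0.145; edgeR adjusted p = 4.76e-23), the cystine carrier SLC7A11 (1.65) and SLC2A8, a glucose transporter of intracellular membranes, from 94.96 ± 3.99 to 257 ± 6.37 CPM (1.43; edgeR adjusted p = 7.49e-50). At the other end SLC6A12, a carrier of betaine and GABA, fell from 62, 53 and 64 counts in control to 7, 5 and 5 counts in tamarixetin libraries (log2 fold change -3.34, SE 0.379; edgeR adjusted p = 8.19e-13). SLC1A2, SLC23A1 and SLC5A9 came next (-2.12, -2.05 and -2.03; edgeR adjusted p = 2.36e-25, 1.12e-22 and 4.38e-27), and after them SLC22A7, an organic anion carrier of hepatocytes, which fell from 8.63 ± 0.799 to 2.22 ± 0.396 CPM (-1.95; edgeR adjusted p = 9.06e-14). These genes were named for their place in the ranking after their values were seen.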
